A study of Oryza sativa with 6 samples.

Results

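Genes of growth and defence hormones were followed in rice leaves under combined fluctuating light and drought stress (FL-DS). The set holds the 35 of 2995 genes of the deposited table whose Swiss-Prot description names auxin, gibberellin, cytokinin, an ethylene synthesis or perception protein, a TIFY protein, jasmonate or strigolactone. Of 38 rows with these words, 3 rows described as SAUR36 were left out, and ethylene-responsive transcription factors were not part of the set. The 35 genes comprised 15 auxin, 5 gibberellin, 7 cytokinin, 2 ethylene, 3 jasmonate and 3 strigolactone rows, and each was matched to RefSeq by its gene ID.

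RNA-seq was made from leaves of 2 genotypes, with 3 libraries each. WYG7 is the unedited rice line, labelled wt. The edited line is labelled PIF4v3m and was taken to be *PIL13*v3m of the study, a single CRISPR/Cas9 line in the WYG7 background that lacks the v3 SNP in the promoter of *OsPIL13*, a phytochrome-interacting bHLH transcription factor. Both lines were grown in pots under FL-DS, so no unstressed library entered the comparison. The labels give plants of 3 weeks, which is younger than the plants were at the start of FL-DS in the chamber methods of the study, and the age of the leaves is therefore not settled. The labelled tissue was checked by photosynthesis markers. The highest chlorophyll a-b binding protein row had at least 846 FPKM and the RuBisCO small chain row at least 841 FPKM in each library. No row was listed for phosphoribulokinase, for SLAC1 or KAT of guard cells, or with a root-specific description. Markers of another tissue could therefore not be looked at. The edited gene itself was not followed, because 2 rows carry the PIL13 description and neither was paired with the locus number of *OsPIL13*. The study itself reports reduced *OsPIL13* expression in its edited line.

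The values are FPKM, fragment counts scaled for transcript length and library size, which can therefore be compared between genes. Read depth per gene is not given, so how exact a low FPKM is cannot be stated. The table lists genes that the authors had already called as different between these same libraries, since 2995 of 2995 rows have a deposited FDR below 0.01 and a deposited log2 change of 1 or more in size. The number of hormone genes that did not change is therefore unknown, and the tests given here on the log2(FPKM + 1) scale, made with limma and adjusted by Benjamini-Hochberg over all listed genes, describe sizes and errors rather than giving new evidence that a gene changed.

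Auxin acts by bringing TIR1/AFB receptors together with Aux/IAA repressors, whose breakdown frees auxin response factors (ARFs) to act on their target genes. Gibberellins promote elongation by removing DELLA repressors, and their amount is set by GA20 oxidases that make them and GA2 oxidases that inactivate them. Cytokinins are released from their nucleotides by LOG enzymes, broken down by cytokinin dehydrogenases (CKX) and sensed through histidine kinases and response regulators. Ethylene is made from ACC by ACC oxidase, and jasmonate signalling is held back by the JAZ proteins, which carry the TIFY domain. PIF proteins are known, mainly from Arabidopsis, for linking light signals to auxin and gibberellin.

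Across the hormone genes, 19 were higher and 16 were lower in PIF4v3m than in WYG7 at a limma adjusted p under 0.05. Of all listed genes, 45.8% were called higher and 54.1% lower, 99.9% in all, so a call by itself does not set the hormone genes apart. The auxin rows were mostly higher in PIF4v3m (12 higher, 3 lower). Gibberellin rows (1 higher, 4 lower) and cytokinin rows (4 higher, 3 lower) were fewer. So were the ethylene (0 higher, 2 lower), jasmonate (1 higher, 2 lower) and strigolactone rows (1 higher, 2 lower). These smaller groups hold too few rows for their directions to be set apart from the shares over all listed genes. For the auxin rows, a difference from these shares was not tested. The groups follow the descriptions, and a role in the named hormone was not tested. The median log2 fold change was 0.60 over the hormone genes and 0.79 over the auxin genes, against -0.56 over all listed genes. As each row was listed for a change of a minimum size, values near 0 are rare, and the sign of such a median follows from which direction holds more genes. Its size depends on the pseudocount, and with 0.1 it was 1.05 over the hormone genes and -1.08 over all listed genes. The median absolute log2 fold change was 1.19 for the hormone genes and 1.10 for all listed genes. On the log2(FPKM + 1) scale, 12 hormone genes were more than 2-fold higher and 12 more than 2-fold lower, against 26.6% and 33.9% of all listed genes. Values of the lines did not overlap for 34 of the 35 genes (99.4% of all listed genes). The smallest exact two-sided permutation p for a single gene with 3 libraries against 3 is 0.1. The replicates carry no label that tells separate plants from repeat samples, so the errors measure the spread between these libraries.

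**Figure D1:**
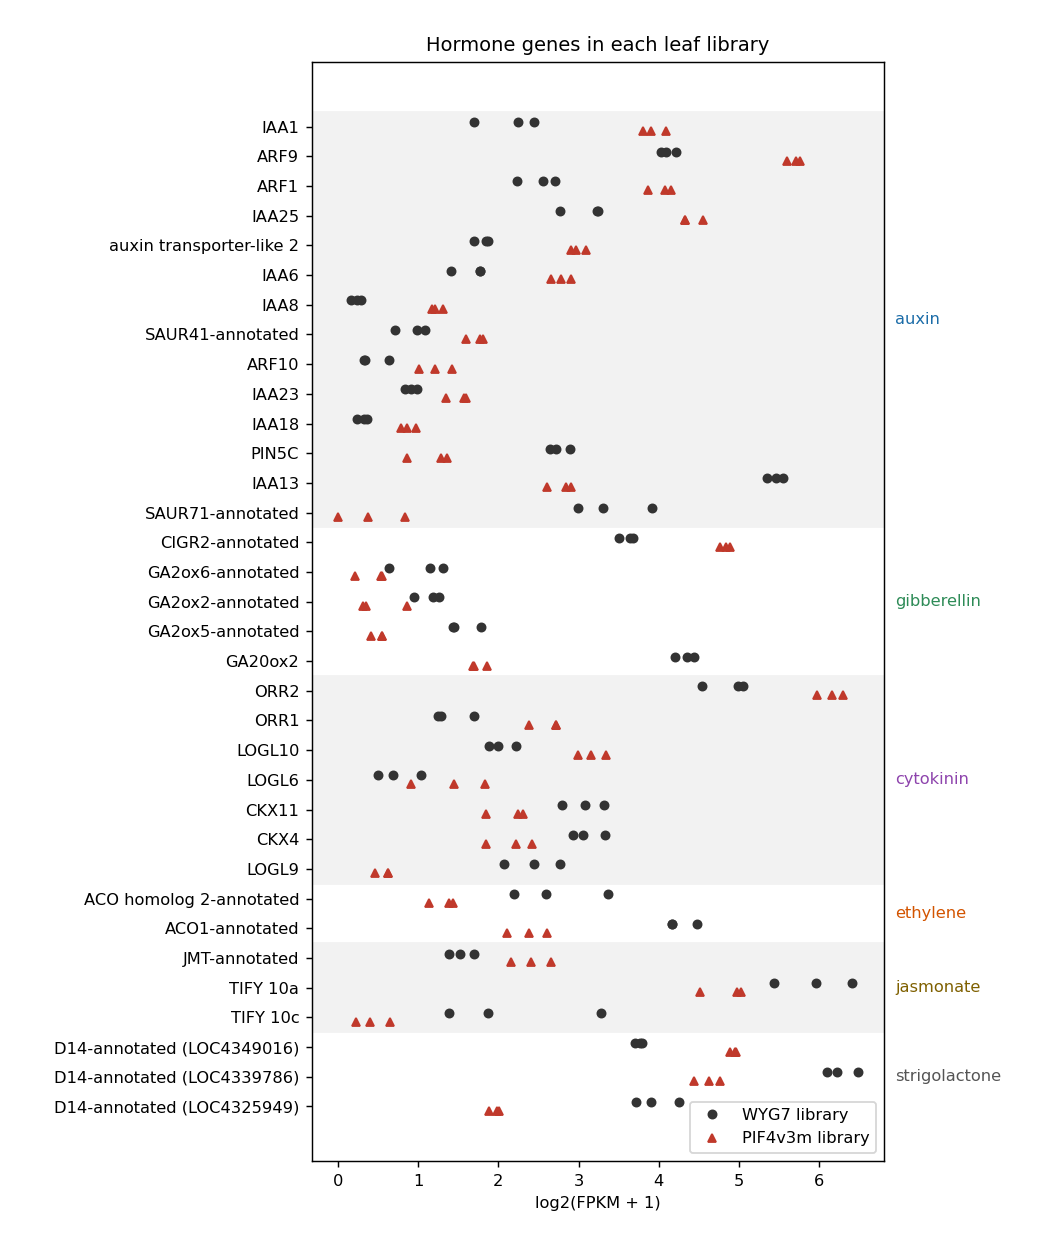
Level of 34 of the 35 hormone genes in every library, as log2(FPKM + 1), with WYG7 libraries as black circles and PIF4v3m libraries as red triangles, ordered within each hormone by log2 fold change. LOGL6 is the plotted gene in which circles and triangles overlap, and in the other plotted genes they occupy separate ranges.

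**Figure D2:**
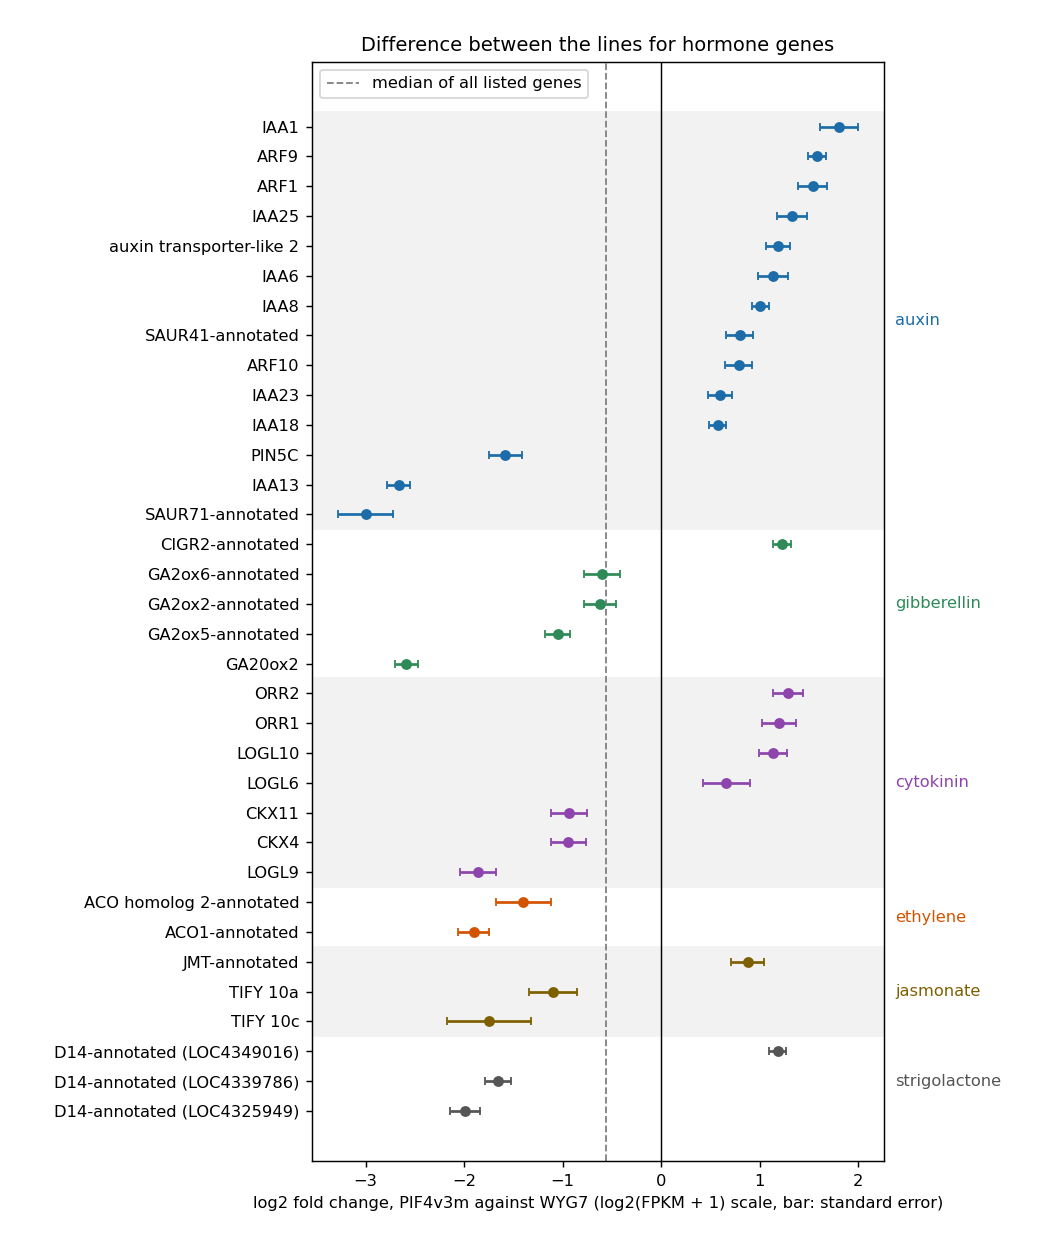
Log2 fold change of PIF4v3m against WYG7 on the log2(FPKM + 1) scale for 34 of the 35 hormone genes, with the limma standard error as bar and colours for hormones. Auxin genes lie mostly to the right of 0, and the dashed line marks the median of all listed genes, -0.56.

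Aux/IAA proteins repress ARFs, though not all of them, and are themselves induced by auxin. IAA13 (LOC4334069), the most abundant of them in WYG7, had 43.1, 39.9 and 45.9 FPKM in WYG7 and 5.11, 6.21 and 6.51 FPKM in PIF4v3m. It thus fell from 43.0 ± 3.01 to 5.94 ± 0.737 FPKM (SD, n = 3), and the log2 fold change was -2.67 with a standard error of 0.11 (adjusted p = 7.65e-07 by limma), the smallest p of the hormone genes. The other 6 Aux/IAA genes of the table went the opposite way. IAA1 (LOC4323871) had 4.44, 3.76 and 2.25 FPKM in WYG7 and 13.99, 12.9 and 16.0 FPKM in PIF4v3m. This was the largest increase among the hormone genes on the log2(FPKM + 1) scale (1.80, standard error 0.20). With a pseudocount of 0.1, the increase of IAA8 was larger than that of IAA1 (log2 fold changes 2.43 and 2.06). Each PIF4v3m library of IAA1 was well above each WYG7 library, although the WYG7 values themselves varied with a coefficient of variation of 32.3%. IAA25 (LOC4344471) rose from 7.58 ± 1.52 to 20.3 ± 1.96 FPKM and IAA6 (LOC4326541) from 2.16 ± 0.444 to 5.91 ± 0.597 FPKM. The remaining Aux/IAA genes were weakly expressed. IAA8 (LOC4330571) was at 0.171 ± 0.05 FPKM in WYG7 and 1.35 ± 0.119 FPKM in PIF4v3m, a 7.88-fold ratio of means, while IAA23 (LOC4341432) and IAA18 (LOC4339365) had ratios of 2.10 and 3.55 and did not exceed 2.02 FPKM in any library.

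The opposite changes nearly offset each other in amount. Summed over the 7 Aux/IAA genes, WYG7 libraries had 59.7, 55.9 and 56.8 FPKM and PIF4v3m libraries 48.6, 47.6 and 55.2 FPKM. The PIF4v3m sums were lower, but the nearest libraries of the lines lay less than 1 FPKM apart. What differed was the makeup of the sum. IAA13 gave 74.8% ± 5.15 of it in WYG7 and 11.8% ± 1.27 in PIF4v3m, whereas IAA25 went from 13.2% ± 2.61 to 40.1% ± 0.715 and IAA1 from 6.04% ± 1.84 to 28.3% ± 0.969 (SD, n = 3). These shares refer to the Aux/IAA genes the table lists and not to the whole family.

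The 3 listed ARFs were all higher in PIF4v3m. Not every ARF is under Aux/IAA control, and whether these are was not tested. ARF9 (LOC4335934) had 17.5, 15.3 and 16.1 FPKM in WYG7 and 51.3, 53.4 and 47.6 FPKM in PIF4v3m, a log2 fold change of 1.58 (standard error 0.09). ARF1 (LOC4327785) rose from 4.71 ± 0.915 to 15.4 ± 1.71 FPKM and ARF10 (LOC4336419) from 0.357 ± 0.176 to 1.34 ± 0.339 FPKM. The ratios of the means were 3.11 for ARF9, 3.28 for ARF1 and 3.75 for ARF10. That of the weakly expressed ARF10 was 5.25 without WYG7 replicate 1 and 3.26 without PIF4v3m replicate 3. The summed level of these ARFs went from 19.3 to 23.6 FPKM over the WYG7 libraries to 62.8 to 71.5 FPKM over the PIF4v3m libraries, and ARF9 made up 76.5% ± 2.65 and 75.2% ± 0.570 of it. The makeup of the ARF sum was thus similar in the lines, which follows from the similar ratios of these 3 genes. These shares refer to the listed ARFs and not to the whole family.

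Auxin carriers did not share a direction. PIN5C (LOC4346116), annotated as an auxin efflux carrier of the PIN5 group, had 6.41, 5.61 and 5.25 FPKM in WYG7 and 1.45, 1.56 and 0.816 FPKM in PIF4v3m (log2 fold change -1.58, standard error 0.17). Auxin transporter-like protein 2 (LOC4338948), of the AUX/LAX type that takes auxin up, rose from 2.50 ± 0.216 to 6.97 ± 0.540 FPKM. SAUR genes are short genes that respond early to auxin, and the listed rows matched Arabidopsis entries. SAUR71 by description (LOC9268804), which the NR column calls SAUR50, had 14.1, 6.96 and 8.89 FPKM in WYG7 and 0.297 and 0.786 FPKM in PIF4v3m replicates 2 and 3, and it was listed at 0 in PIF4v3m replicate 1. This was the largest decrease of the hormone genes on the log2 scale (-2.999, standard error 0.28), with a ratio of means of 27.6, or 67.2 without PIF4v3m replicate 3 and 18.4 without PIF4v3m replicate 1. In contrast, SAUR41 by description (LOC9267097) rose from 0.916 ± 0.249 to 2.31 ± 0.255 FPKM.

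The GA20 oxidase row and the GA2 oxidase rows were lower in PIF4v3m. GA20ox2 (LOC4325003), the semidwarf gene *sd1* of rice breeding by its RefSeq synonyms, had 19.4, 20.8 and 17.5 FPKM in WYG7 and 2.21, 2.25 and 2.61 FPKM in PIF4v3m. The fall of 8.14-fold in mean FPKM (log2 fold change -2.59, standard error 0.12) was far larger than the spread within either line, where the coefficients of variation were 8.64% and 9.36%. The 3 GA2 oxidase rows were low in both lines. GA2ox5 by description (LOC4342182), which the NR column calls gibberellin 2-beta-dioxygenase 8, fell from 1.96 ± 0.417 to 0.420 ± 0.0731 FPKM. GA2ox2 (LOC9266994) had 0.925, 1.28 and 1.39 FPKM in WYG7 and 0.238, 0.271 and 0.820 FPKM in PIF4v3m, with 1 PIF4v3m library near the lowest of WYG7. Its ratio of means was 2.70, or 4.70 without PIF4v3m replicate 3. GA2ox6 (LOC9266251) had 1.47, 1.22 and 0.558 FPKM in WYG7 and 0.453, 0.457 and 0.154 FPKM in PIF4v3m. The calls of GA2ox2 and GA2ox6 were lost with median-centred values (limma adjusted p = 0.0866 and 0.0912), and that of GA2ox6 also after quantile normalization (limma adjusted p = 0.0668).

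The gibberellin-responsive row went the other way. CIGR2 (LOC4348466), a GRAS protein found through its induction by chitin and gibberellin and called scarecrow-like protein 21 in the NR column, rose from 11.2 ± 0.799 to 27.5 ± 1.19 FPKM. Its libraries differed little within a line, with 10.3 to 11.8 FPKM in WYG7 and 26.3 to 28.7 FPKM in PIF4v3m.

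**Figure D3:**
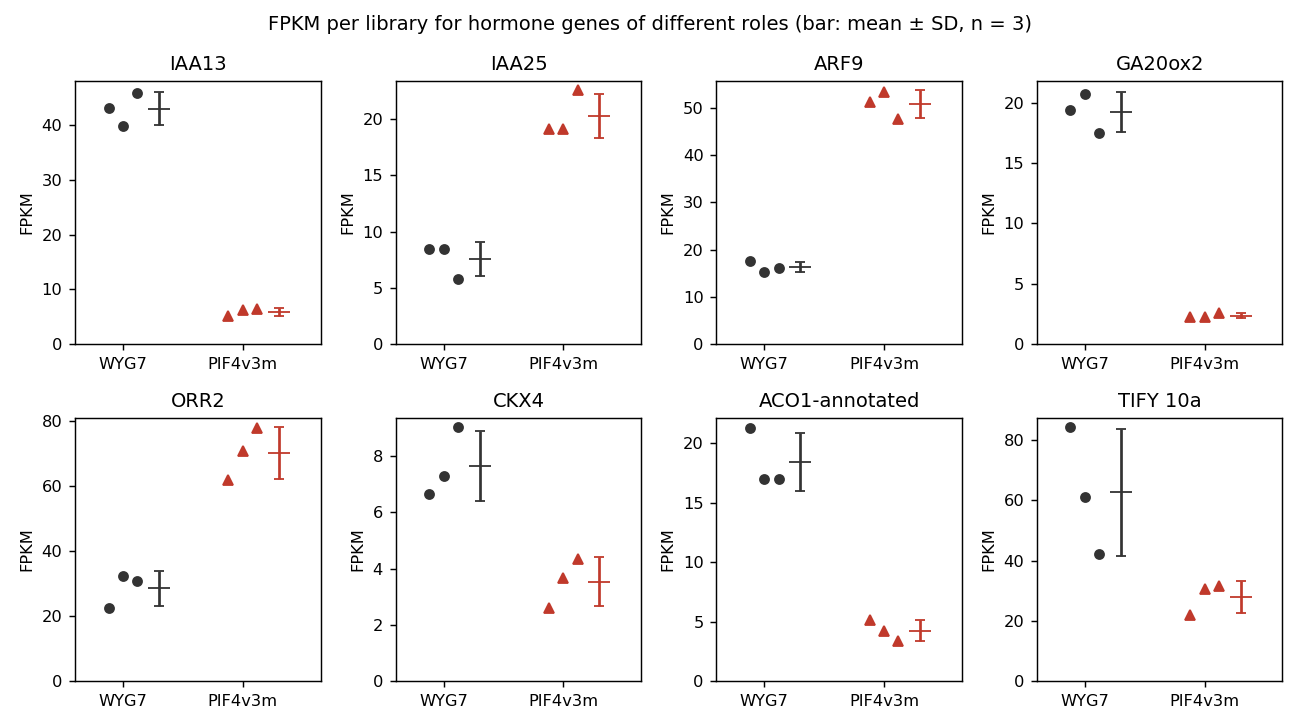
FPKM in each library for 8 hormone genes of different roles, with the mean and SD (n = 3) beside the points of each line. IAA13, GA20ox2, CKX4, ACO1 and TIFY 10a are lower and IAA25, ARF9 and ORR2 higher in each PIF4v3m library than in any WYG7 library.

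Cytokinin rows fell into breakdown genes that were lower, response genes that were higher and activating genes of either direction. CKX4 (LOC4326515) had 6.66, 7.28 and 9.05 FPKM in WYG7 and 2.59, 3.67 and 4.34 FPKM in PIF4v3m. CKX11 (LOC4345764) had almost the same levels, 7.46 ± 1.505 and 3.42 ± 0.729 FPKM, and the log2 fold changes were -0.94 for both (standard errors 0.18). The A-type response regulators, which are induced by cytokinin and dampen its signal, were higher. ORR2 (LOC4329677), at 22.4, 32.2 and 30.8 FPKM in WYG7, reached 62.0, 70.8 and 77.9 FPKM in PIF4v3m, the highest level of any hormone gene in that line. ORR1 (LOC4335937) rose from 1.69 ± 0.483 to 5.13 ± 0.785 FPKM, so that ORR2 made up 94.3% of the summed ORR level in WYG7 and 93.2% in PIF4v3m.

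The LOG-like genes, which encode phosphoribohydrolases that release active cytokinin, changed places. LOGL9 (LOC4347769) had 5.84, 3.19 and 4.44 FPKM in WYG7 and 0.535, 0.382 and 0.541 FPKM in PIF4v3m, a log2 fold change of -1.86 (standard error 0.18). LOGL10 (LOC4348914) had 2.70, 2.99 and 3.64 FPKM in WYG7 and 9.18, 7.93 and 6.97 FPKM in PIF4v3m (log2 fold change 1.13, standard error 0.15). LOGL9 gave 53.6% ± 8.85 of the summed LOG-like level in WYG7 and 4.81% ± 1.19 in PIF4v3m, and LOGL10 38.3% ± 8.03 and 78.3% ± 7.32 (SD, n = 3). The sum itself lay between 6.59 and 9.14 FPKM in WYG7 and between 9.24 and 10.9 FPKM in PIF4v3m. LOGL6 (LOC4336417) had 0.603, 0.410 and 1.05 FPKM in WYG7 and 0.875, 2.56 and 1.74 FPKM in PIF4v3m, and it was the hormone gene whose lines overlapped. Its call (log2 fold change 0.66, standard error 0.24, limma adjusted p = 0.0255) was lost without WYG7 replicate 1 (adjusted p = 0.0566), WYG7 replicate 2 (adjusted p = 0.0806), PIF4v3m replicate 2 (adjusted p = 0.0910) or PIF4v3m replicate 3 (adjusted p = 0.0638).

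Both ACC oxidase rows were lower in PIF4v3m. The row described as ACO1 (LOC4330873), the enzyme of the last step of ethylene synthesis, had 21.3, 17.0 and 17.0 FPKM in WYG7 and 5.11, 4.22 and 3.33 FPKM in PIF4v3m (log2 fold change -1.90, standard error 0.16). The row described as ACC oxidase homolog 2 (LOC4335099) fell from 5.96 ± 2.97 to 1.502 ± 0.265 FPKM, with 9.29 FPKM in WYG7 replicate 2 against 5.03 and 3.57 FPKM in the other WYG7 libraries. Its KEGG column names a dioxygenase of benzoxazinoid synthesis, so a part in ethylene synthesis does not follow from its description. No row of the table is described as an ethylene receptor. A row just outside the wording used, ETHYLENE-INSENSITIVE 3-like 2 (LOC4344331), of the family of transcription factors at the end of the ethylene pathway, was chosen after its values were seen and rose from 13.4 ± 2.34 to 35.8 ± 4.43 FPKM.

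TIFY 10a (LOC4333065) and TIFY 10c (LOC4347164) are JAZ repressors, which jasmonate induces. TIFY 10a had 84.4, 61.2 and 42.3 FPKM in WYG7 and 21.9, 30.5 and 31.7 FPKM in PIF4v3m. In FPKM, the highest and lowest WYG7 libraries lay further apart than the means of the lines, which differed 2.23-fold, although the values of the lines did not overlap. TIFY 10c had 2.66, 8.69 and 1.60 FPKM in WYG7 and 0.172, 0.320 and 0.570 FPKM in PIF4v3m. The ratio of means of TIFY 10c, 12.2, rested largely on WYG7 replicate 2 and was 6.01 without it, and its standard error on the log2 scale (0.42) was the largest of the hormone genes. The row described as jasmonate O-methyltransferase (LOC9269280), an enzyme that makes methyl jasmonate in Arabidopsis, rose from 1.90 ± 0.317 to 4.36 ± 0.927 FPKM.

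The rows described as strigolactone esterase D14 were 3 different genes, none of which has D14 among its RefSeq symbols or synonyms. The NR column calls LOC4339786 and LOC4325949 probable esterase KAI2, after the relative of D14 that is known in Arabidopsis for sensing karrikins, and it gives LOC4349016 no name. LOC4339786 had 88.7, 73.7 and 67.3 FPKM in WYG7, the highest mean level of the hormone genes in that line, and 26.2, 20.7 and 23.7 FPKM in PIF4v3m. LOC4325949 fell from 14.7 ± 3.03 to 2.89 ± 0.182 FPKM. LOC4349016 rose from 12.5 ± 0.396 to 29.6 ± 0.730 FPKM, with the smallest standard error of the hormone genes on the log2 scale (0.08). The direction therefore differed between genes that share this description, and their values bear on these esterases rather than on the strigolactone receptor itself.

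Other genes of the same pathways were taken from a list of Swiss-Prot names, and 29 of them were in the table after a row described as annexin D3, caught by the name of the D3 gene, was set aside. Of these, 15 were higher and 14 lower in PIF4v3m, against 45.8% and 54.1% of all listed genes. In the auxin pathway, 3 YUCCA rows, for the enzyme that makes auxin from indole-3-pyruvate, were lower. YUCCA4 (LOC4326734), called YUCCA2 in the NR column, fell from 1.99 ± 0.710 to 0.547 ± 0.125 FPKM, and the 2 rows described as YUCCA10, LOC4325177 and LOC4325178, fell from 6.01 ± 3.09 to 0.295 ± 0.127 FPKM and from 1.63 ± 0.112 to 0.123 ± 0.0374 FPKM. The YUCCA10 rows have 1 gene between them in the RefSeq order. Reads may have been divided between rows that share a description, which was not tested. In contrast, the IAA-amino acid hydrolase rows, of a family that frees auxin from its conjugates, were higher. ILR1-like 7 (LOC4342838) rose from 11.0 ± 1.55 to 34.1 ± 0.696 FPKM and ILR1-like 9 (LOC4342840) from 5.27 ± 0.773 to 11.3 ± 0.403 FPKM. These hydrolase rows also have 1 gene between them, and whether reads were divided between them was likewise not tested. The NR column marks ILR1-like 9 as a low quality protein. A TIR1-like receptor row (LOC4331880) rose from 3.98 ± 0.720 to 8.23 ± 0.395 FPKM, and PIN-LIKES 7 (LOC4347808), of a family of auxin carriers inside the cell, from 1.28 ± 0.244 to 9.42 ± 2.32 FPKM.

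In the gibberellin pathway, ent-copalyl diphosphate synthase 1 and ent-kaurenoic acid oxidase, which act before GA20ox2, were higher while GA20ox2 was lower. Other steps before GA20ox2 were not among the genes followed. Ent-copalyl diphosphate synthase 1 (LOC4329013), which makes the first committed intermediate, rose from 0.621 ± 0.338 to 1.88 ± 0.329 FPKM, and ent-kaurenoic acid oxidase (LOC4339885), a later step before the GA20 oxidases, from 1.14 ± 0.287 to 3.16 ± 0.290 FPKM. Syn-copalyl diphosphate synthase (LOC4335090), which serves the making of phytoalexins in rice rather than gibberellins, fell from 5.14 ± 0.242 to 1.41 ± 0.396 FPKM. Of 6 CYP714 rows, a cytochrome P450 family, 4 were higher and 2 lower. The higher rows were weakly expressed, with CYP714C2 (LOC4351346) going from 0.962 ± 0.298 to 2.68 ± 0.0890 FPKM, CYP714C3 (LOC9270841) from 0.287 ± 0.10 to 0.981 ± 0.10 FPKM and CYP714C1 (LOC4351345) from 0.0850 ± 0.0291 to 0.482 ± 0.0953 FPKM. The gibberellin 13-oxidases of rice differed in direction. CYP714B1 (LOC4344303) rose from 0.307 ± 0.121 to 0.781 ± 0.156 FPKM. CYP714B2 (LOC4332734) fell from 7.80 ± 1.77 to 2.26 ± 0.436 FPKM, and CYP714D1 (LOC4339131), which inactivates gibberellins in rice, from 0.801 ± 0.139 to 0.363 ± 0.0414 FPKM. A row described as histidine kinase 4 (LOC107277390), of the cytokinin receptor family, rose from 0.456 ± 0.164 to 4.57 ± 0.935 FPKM, alongside the higher ORR1 and ORR2.

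In the ethylene pathway, S-adenosylmethionine synthase 1 (LOC4337733), which makes the substrate from which ACC is formed, fell from 184 ± 34.1 to 59.3 ± 6.56 FPKM, while 2 rows described as CTR1, a kinase that restrains ethylene signalling in Arabidopsis, rose (log2 fold changes 0.94 and 1.01). For the row with 1.01 (LOC107278404) the NR column names another kinase, SIS8. Of 7 rows taken for jasmonate by their names, 6 were lower, against 54.1% of all listed genes. One of these is described as linoleate 9S-lipoxygenase 4 (LOC4333823), which does not by itself place it in jasmonate synthesis. It fell from 2.88 ± 0.786 to 1.17 ± 0.312 FPKM. Also lower were 3 rows described as 12-oxophytodienoate reductases, enzymes named for a precursor of jasmonate (log2 fold changes -0.79 to -1.24). Which of them act in jasmonate synthesis was not tested. These reductase rows lie close together in the RefSeq order, and whether their values share reads was not tested. Lipoxygenase 8 (LOC4345994) was the row of this pathway that was higher, from 6.87 ± 2.03 to 15.5 ± 3.15 FPKM, and its direct neighbour lipoxygenase 7 (LOC4345993) fell from 3.31 ± 0.713 to 1.28 ± 0.548 FPKM. MYC2 by description (LOC4347601), a transcription factor that JAZ proteins restrain, fell from 0.728 ± 0.267 to 0.140 ± 0.167 FPKM, with a ratio of means of 5.20, or 16.4 without PIF4v3m replicate 2. Carotenoid cleavage dioxygenase 7 (LOC4336591), an enzyme of strigolactone synthesis, had 0.435 ± 0.132 FPKM in WYG7 and 0.122 ± 0.0268 FPKM in PIF4v3m.

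**Figure D4:**
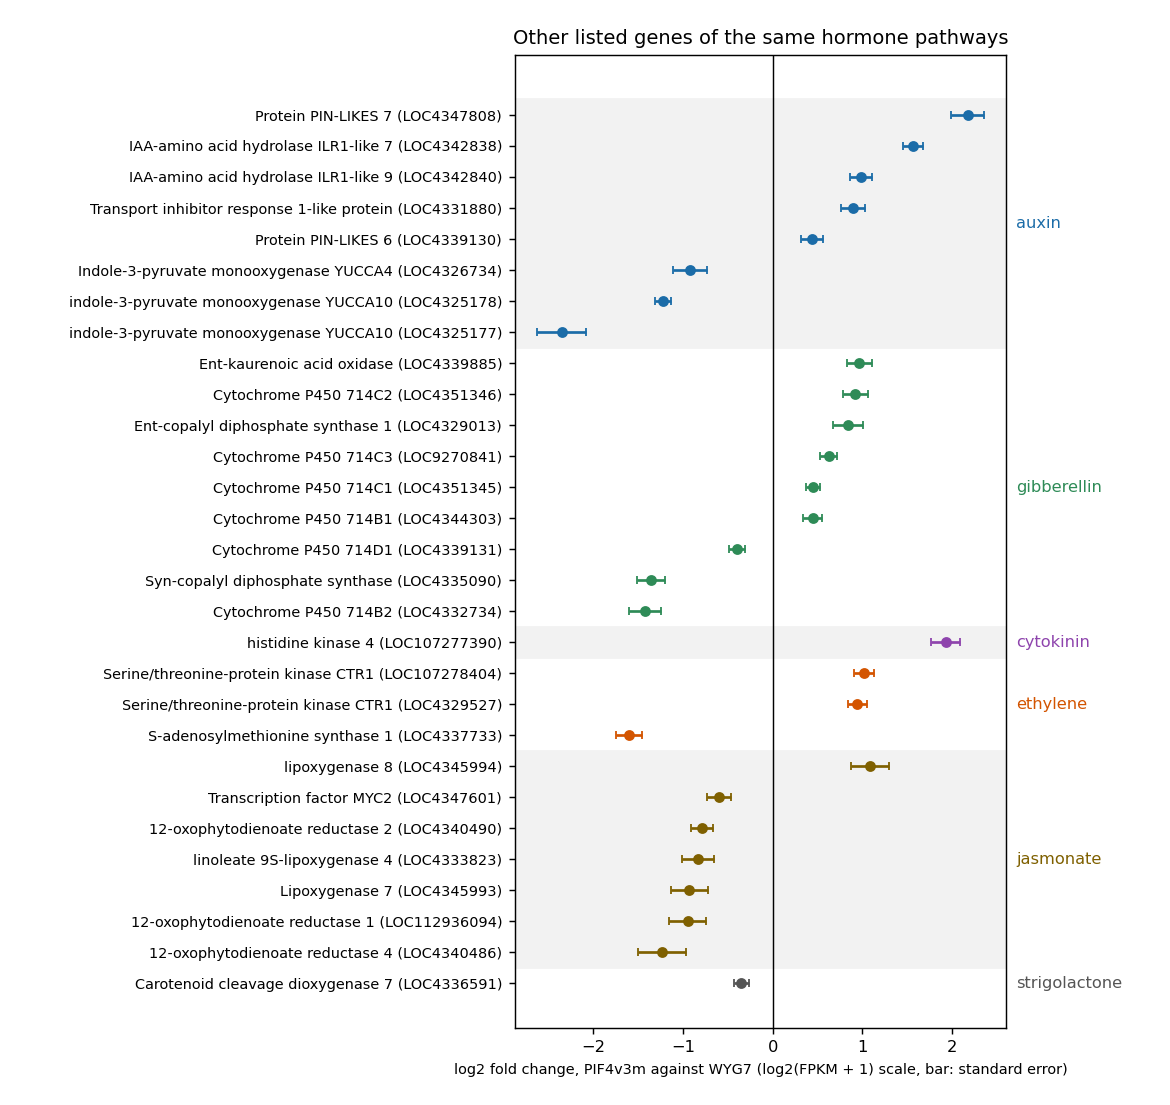
Log2 fold change of PIF4v3m against WYG7 on the log2(FPKM + 1) scale for the 29 other listed genes of the same pathways, with the limma standard error as bar. The 3 YUCCA rows and 6 of 7 rows taken for jasmonate by their names lie to the left of 0. The receptor and conjugate hydrolase rows of auxin lie to the right.

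By level, 13 of the 35 hormone genes reached a mean of 10 FPKM in at least 1 line, 4 reached 50 FPKM (ARF9, ORR2, TIFY 10a and the esterase row LOC4339786), and IAA18 stayed under 1 FPKM in both. The median coefficient of variation was 20.2% in WYG7 and 14.5% in PIF4v3m for the hormone genes, and 16.6% and 14.9% for all listed genes. WYG7 replicate 1 had the lowest limma library weight (0.459, against 0.958 to 1.53 in the other libraries). Without it, 18 hormone genes were called higher and 16 lower, LOGL6 being the gene lost. Summed over the 35 genes, WYG7 libraries had 345 to 426 FPKM and PIF4v3m libraries 332 to 366 FPKM, so the ranges of the sums overlapped. In the KEGG column, 18 of the 35 carry the label of plant hormone signal transduction, with 14 higher and 4 lower, as do 64 other listed genes, with 32 higher and 31 lower (45.8% higher and 54.1% lower among all listed genes, each listed because it had been called). Along the chromosomes, ARF9 and ORR1 have 2 genes between them in the RefSeq order and LOGL6 and ARF10 have 3. All 4 were higher in PIF4v3m, as were 45.8% of all listed genes. Among the other pathway genes, the direct neighbours LOC4345993 and LOC4345994 differed in direction. The direct neighbours LOC4351345 and LOC4351346 were both higher, and LOC4340490 and LOC112936094 were both lower. Whether neighbours share a direction was not tested.

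The clock gene *LHY* (LOC4344703), whose RNA peaks around dawn and which was chosen after its values were seen, moved in the same libraries, from 19.1, 24.5 and 22.8 FPKM in WYG7 to 218, 216 and 218 FPKM in PIF4v3m. The time of leaf collection is not recorded, and the part of the time of day in the hormone gene values was not tested. In bulk leaf RNA, fewer cells of a type and less RNA per cell cannot be told apart.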

How the data were processed

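Leaf RNA of 3 WYG7 and 3 PIF4v3m libraries was sequenced, and the authors deposited 1 FPKM value per gene for each library. The paper names STAR, Cufflinks and DESeq2, whereas StringTie 1.3.0, HISAT2 2.0, Bowtie 0.12.2 and mm8, a mouse build, stand in the submitters' processing notes, so the tools behind the FPKM are not settled. The deposited FDR, an adjusted p-value of the authors, and the deposited log2 fold change were used only to see which rows the table lists (called genes only). All columns with library values were used. Read depth is unknown.

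Values were compared as log2(FPKM + 1) in R 4.3.3 by limma 3.58.1 (with a trend of variance on mean, genes with a mean FPKM above 0.01, no covariate, two-sided, Benjamini-Hochberg over 2995 genes, threshold 0.05), after the functions were tested on simulated data. Folds on this scale understate changes of low genes. Ratios are of mean FPKM. The hormone genes, the other pathway genes and the settings were chosen with earlier results of these data known. Values are given in full for some genes of each hormone and for the gene whose lines overlap, and for further genes by mean or ratio. The genes given in full were not always those with the largest log2 fold change. Alternatives were other pseudocounts, filters, scalings and limma settings, an adjusted p under 0.01, each library left out, and the replicate number as a block. Names came from the deposited annotation, and RefSeq (assembly ASM3414082v1) was used for synonyms and gene order only. The values of 1 hormone gene are not reported here, although the counts hold it. Figures were drawn with matplotlib 3.10.9.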

Additional observations from a re-analysis of the deposited data

How the results depend on the processing

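No hormone gene changed direction under any of the 17 alternatives, and of 594 values for single genes 585 kept their side of the threshold. As the authors had listed genes that differ between these libraries, this says little about robustness. The 9 calls lost were those of LOGL6, GA2ox6 and GA2ox2. Those of LOGL6 and GA2ox6 (limma adjusted p = 0.0255 and 0.0106) were also lost at an adjusted p under 0.01. Without single libraries, 18 to 19 hormone genes were higher and 16 to 16 lower. With the replicate block, 19 were higher and 16 lower. The numbers were not taken as pairs, because the deviations of libraries with equal numbers had correlations of -0.068, 0.003 and -0.097. Median-centring moved the median log2 fold change of all listed genes by 0.29, quantile normalization by 0.23 and a common sum by 0.05, and these scalings used listed genes only. The median of the hormone genes was 0.60, and 0.89, 0.85 and 0.68 under these. With pseudocounts of 0.1 and 0.01 it was 1.05 and 1.09, against -1.08 and -1.13 for all listed genes. The filter on a mean FPKM above 0.01 removed no gene. Depth per gene is unknown, so how far it limits the genes under 1 FPKM could not be stated.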
